A study of Mus musculus with 8 samples.

Results

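Nuclear receptors are transcription factors that share a zinc finger DNA-binding domain and, in most members, a pocket that binds a small fat-soluble ligand. The family was taken as every probe that the authors' deposited table names by one of 39 listed receptor genes or by a systematic symbol of the form Nr, digit, letter, digit. That rule found 77 probes of 47 genes, 39 from the list and 8 by the symbol pattern alone (Nr0b1, Nr1h5, Nr2c1, Nr2c2, Nr2e1, Nr2e3, Nr5a1 and Nr6a1), among 41174 probes and 19440 named genes on the array. Of the 47 genes, 26 had 1 probe, 13 had 2, 7 had 3 and 1 had 4. Where a gene had several probes, the one of highest mean intensity over the 8 arrays stands for the gene and the others are given beside it.

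The colons of 4 male Mdr1a-/- mice (FVB/N background) chosen for high histological injury were set against those of 4 male FVB/N mice chosen for low injury, so genotype and injury cannot be told apart. Mdr1a, now Abcb1a, encodes a pump that exports drugs and bacterial products from epithelial cells, and mice without it can develop colitis. All were given AIN-76A, a purified powdered diet, lived to between 21 and 24 weeks, and were fasted overnight and briefly refed before death. Each mouse had a 2-colour array of its own, hybridised with a shared reference made from adult and fetal Swiss mouse tissues.

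Signal above background was found on 27596 to 35541 probes an array. Correlations of log2(sample / reference) across probes, which are not independent, were 0.678 to 0.802 within a group and 0.565 to 0.73 between groups. The probe of Abcb1a stood at -0.89, -0.95, -0.70 and -0.97 in Mdr1a-/- mice and at -0.80, 0.01, -0.49 and -0.62 on the arrays labelled FVB/N, on the log2(sample / reference) scale. The groups overlapped, and the difference was -0.40 ± 0.19 (SE, limma adjusted p = 0.362). The authors' deposited table gives -1.62 for that probe. The sources used here do not say whether the probe reads the deleted sequence. Set against the slide numbers in the protocol, 3 of 4 Mdr1a-/- files matched a slide of their group, and 0 of 4 FVB/N files did. The neutrophil marker S100a9 was 4.18 ± 0.49 higher in Mdr1a-/- mice (SE, limma adjusted p = 0.00332) with groups that did not overlap, which is the direction of the labelled injury and does not bear on genotype; it was near saturation (a foreground signal above 60000) on 3 Mdr1a-/- arrays. The genotype labels are in doubt, the second group is called the arrays labelled FVB/N, and every direction below rests on the labels.

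In the intestine, nuclear receptors sense bile acids, fatty acids, oxysterols, vitamins, hormones and foreign compounds and set the transcription of transporters and metabolic enzymes. Many of them bind DNA as a pair with a retinoid X receptor. Others, such as Hnf4a and Nr5a2, bind as homodimers or monomers and are known for their part in epithelial identity and renewal.

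No receptor gene was called higher in Mdr1a-/- mice (limma, adjusted p under 0.05, Benjamini-Hochberg on every probe). The 4 called lower were Ppara, Vdr, Nr5a2 and Hnf4a. All 4 were between 2.15-fold and 2.53-fold lower. The 4 are 8.51% of the 47 genes, where 2.17% of all 19440 named genes were called lower and 2.26% higher. Counted over probes, 4 of 77 were called lower and 0 higher, where 1.45% and 1.53% of all probes were. At an unadjusted p under 0.05, 10 receptor genes (21.3%) were lower and 1 (2.13%) was higher, where 8.79% and 10.1% of all named genes were. On 8 receptor genes every Mdr1a-/- array was below every array labelled FVB/N, and on 1 (Rora) every one was above, where 6.57% and 7.25% of all named genes did so. The median difference over the 47 genes was -0.08 on the log2 scale, against 0.03 over all named genes. Of the 47 genes 36 were above background on all 8 arrays, 10 on some arrays and 1, the neural gene Nr2e1, on none. These 36 include all 4 called genes. Of the 14125 named genes above background on all 8 arrays, 2.74% were called lower and 2.75% higher, and 8.13% and 8.08% had groups that lay apart in those directions. Of the 36 receptors, 11.1% were called lower and 22.2% lay apart and lower, but receptors that were not above background throughout are left out of these shares.

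**Figure D1:**
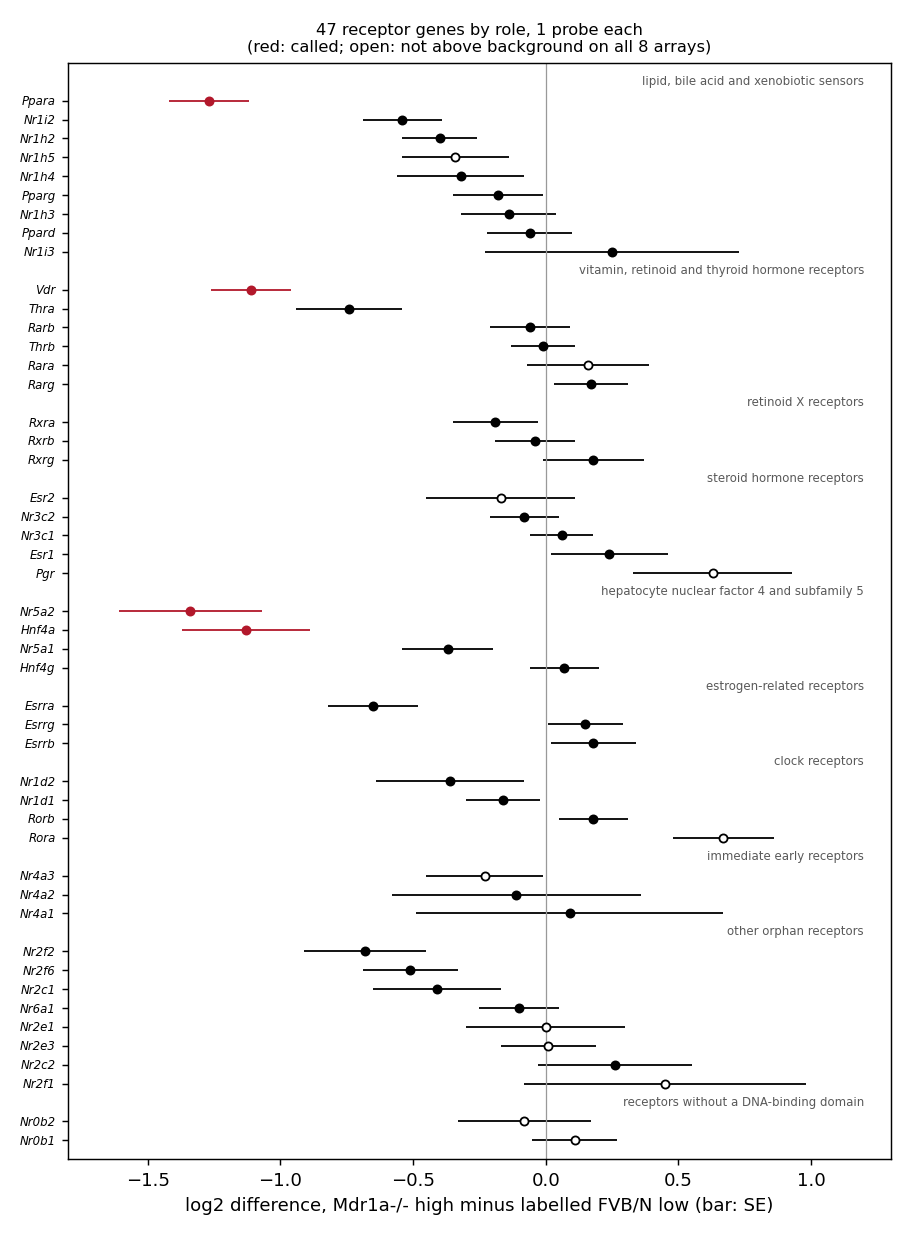
Log2 difference, Mdr1a-/- high minus labelled FVB/N low (horizontal axis), of the 47 receptor genes (vertical axis, grouped by role), 1 probe each, with the standard error as bar, n = 4 arrays a group. Red points are called by limma, and open points were not above background on all 8 arrays. The 4 red points lie between -1.34 and -1.11, and the other genes lie between -0.74 and 0.67.

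The sequences around the annotated starts of the 4 genes that fell are given because these genes were lower together. Each is the sense strand from 250 bases before to 50 bases after a start in RefSeq annotation of GRCm38.p6, and all 4 genes matched by symbol. Nr5a2 and Hnf4a have 2 annotated starts each, and the window with more matches is printed. Capitals mark, on either strand, the nuclear receptor half-site AGGTCA, the Hnf1 half-site GTTAAT and the GC box GGGCGGG, and no marked match overlaps another. The Hnf4 site CAAAGTCCA was searched too. The windows lie at chr15:85735526-85735825, plus strand, at chr15:97908247-97908546, minus strand, at chr1:136960399-136960698, minus strand, and at chr2:163546905-163547204, plus strand, in the order printed.
Ppara: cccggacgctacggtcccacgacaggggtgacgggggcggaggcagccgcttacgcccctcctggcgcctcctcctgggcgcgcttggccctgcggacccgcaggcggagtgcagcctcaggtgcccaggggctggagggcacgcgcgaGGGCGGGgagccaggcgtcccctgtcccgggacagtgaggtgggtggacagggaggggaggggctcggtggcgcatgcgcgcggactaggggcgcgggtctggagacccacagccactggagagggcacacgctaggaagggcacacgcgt
Vdr: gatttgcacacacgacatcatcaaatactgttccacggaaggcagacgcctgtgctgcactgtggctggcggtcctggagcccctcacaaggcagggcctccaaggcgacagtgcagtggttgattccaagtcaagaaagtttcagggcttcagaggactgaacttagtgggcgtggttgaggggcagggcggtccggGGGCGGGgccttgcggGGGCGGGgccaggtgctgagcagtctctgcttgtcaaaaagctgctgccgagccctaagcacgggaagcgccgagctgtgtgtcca
Nr5a2: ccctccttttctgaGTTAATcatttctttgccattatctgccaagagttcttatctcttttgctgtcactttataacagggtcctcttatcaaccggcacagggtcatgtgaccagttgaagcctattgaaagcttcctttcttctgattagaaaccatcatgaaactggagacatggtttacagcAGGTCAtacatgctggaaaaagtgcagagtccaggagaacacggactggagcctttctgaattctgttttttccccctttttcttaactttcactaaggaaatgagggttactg
Hnf4a: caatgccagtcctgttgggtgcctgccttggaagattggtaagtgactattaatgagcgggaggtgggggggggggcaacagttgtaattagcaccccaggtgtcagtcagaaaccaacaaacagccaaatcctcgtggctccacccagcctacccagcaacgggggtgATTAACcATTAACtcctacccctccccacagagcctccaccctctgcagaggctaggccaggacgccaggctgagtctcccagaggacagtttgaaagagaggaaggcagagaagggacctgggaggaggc

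The Ppara and Vdr windows held 1 and 2 GC boxes and none of the other motifs. The Nr5a2 window held 1 nuclear receptor half-site and 1 Hnf1 half-site, and the Hnf4a window held 2 Hnf1 half-sites. Of the windows not printed, that of Nr5a2 held no match and that of Hnf4a held 1 GC box. Of 32851 promoter windows of the same length, 16.3% held AGGTCA, 7.1% GTTAAT, 25.6% GGGCGGG and 0.475% CAAAGTCCA. No 1 of these motifs was shared by all 4 genes.

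Among the lipid, bile acid and xenobiotic sensors, which pair with retinoid X receptors, 1 of 9 genes was called. Ppara, the fatty acid receptor that drives fatty acid oxidation, stood at -2.54, -2.52, -2.43 and -2.63 in Mdr1a-/- mice and at -1.22, -1.55, -1.0 and -1.27 on the arrays labelled FVB/N (log2(sample / reference), replicates 1 to 4). The groups were wide apart and the Mdr1a-/- arrays lay close together. Net Cy3 signals were 680 to 834 on the Mdr1a-/- arrays and 1653 to 2272 on the arrays labelled FVB/N. The Mdr1a-/- signals passed the background cut but were near it, so their spread and the size of the difference depend on the background correction. The difference was -1.27 ± 0.15 (SE, limma adjusted p = 0.00342), which is 2.41-fold lower, and the call was kept in all 8 fits that left out 1 array (adjusted p up to 0.017). Without background subtraction the difference was -0.77 (adjusted p = 0.00617). The authors' deposited table gives -0.42 for this probe (adjusted p = 0.0314).

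The other PPAR genes did not pass. Pparg, the PPAR of adipocytes and colonocytes, stood at 1.05, 0.66, 0.65 and 0.81 in Mdr1a-/- mice and at 0.98, 1.27, 1.0 and 0.65 on the arrays labelled FVB/N. Its groups overlapped, and the difference of -0.18 had a 95% interval from -0.56 to 0.20 (limma adjusted p = 0.709). Ppard, the broadly expressed PPAR, had a difference of -0.06 ± 0.16 (SE). Whether the 3 PPAR genes differ from each other was not tested.

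Nr1i2 and Nr1h2 had groups that did not overlap but missed the threshold. Nr1i2, the pregnane X receptor that senses foreign compounds and induces detoxifying enzymes and Mdr1a, stood at -0.18, 0.27, -0.15 and 0.06 in Mdr1a-/- mice and at 0.63, 0.62, 0.55 and 0.37 on the arrays labelled FVB/N. The difference was -0.54 ± 0.15 (SE, limma adjusted p = 0.1). It was called without background subtraction (-0.42, adjusted p = 0.046) and with the Cy3 channel alone (-0.75, adjusted p = 0.0443). It was not called in a fit blocked on scan day (-0.58, limma adjusted p = 0.261) or in any fit that left out 1 array. Nr1h2, the ubiquitous liver X receptor, stood at -0.23, -0.42, -0.26 and -0.28 in Mdr1a-/- mice and at 0.04, 0.32, 0.17 and -0.10 on the arrays labelled FVB/N. Its difference was -0.40 ± 0.14 (SE, limma adjusted p = 0.191). Both genes were lower on every Mdr1a-/- array by less than the genes that were called.

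The remaining sensors overlapped between the groups. Nr1h4, the bile acid receptor FXR, had a difference of -0.32 ± 0.24 (SE, 95% interval from -0.85 to 0.22). Nr1h3, the liver X receptor of macrophages and liver, had -0.14 ± 0.18 (SE). The probes of Nr1i3, the constitutive androstane receptor, had 0.25 ± 0.48 and -0.43 ± 0.24 (SE). The brighter Nr1i3 probe ranged from -0.46 to 1.95 on the Mdr1a-/- arrays and from 0.11 to 1.25 on the arrays labelled FVB/N. Nr1h5, the lanosterol-sensing relative of FXR, had -0.34 ± 0.20 (SE) and was above background on 3 arrays of each group.

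Of the 6 receptors for vitamin D, thyroid hormone and retinoic acid, 1 was called. Vdr, the vitamin D receptor, stood at -0.61, -0.49, -0.29 and -0.57 in Mdr1a-/- mice and at 0.36, 0.57, 0.81 and 0.74 on the arrays labelled FVB/N. Every Mdr1a-/- array was below the reference RNA and every array labelled FVB/N above it. The difference was -1.11 ± 0.15 (SE, limma adjusted p = 0.00638), which is 2.15-fold lower. It was called in all 8 fits that left out 1 array (adjusted p up to 0.0288), while a fit blocked on scan day gave -1.05 ± 0.18 (SE, limma adjusted p = 0.0623). The Cy3 channel alone gave -1.70. The authors' deposited table gives -0.61 (adjusted p = 0.00283).

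Thra, the thyroid hormone receptor that predominates in the gut, was lower on every Mdr1a-/- array but was not called. Its brighter probe stood at -0.88, -0.36, -0.05 and -0.82 in Mdr1a-/- mice and at 0.10, 0.34, 0.16 and 0.27 on the arrays labelled FVB/N. The difference was -0.74 ± 0.20 (SE, limma adjusted p = 0.0921). Without Mdr1a-/- replicate 3, the Mdr1a-/- array nearest to the other group, it was -0.90 (adjusted p = 0.0291), and it was also called without background subtraction (-0.69, adjusted p = 0.0457) and with array weights (-0.85, adjusted p = 0.0299). A fit blocked on scan day gave -0.59 ± 0.20 (SE, limma adjusted p = 0.291), and no other fit that left out 1 array gave a call. The second Thra probe gave -0.42 ± 0.22 (SE). Thrb, the other thyroid hormone receptor, had -0.01 ± 0.12 (SE) on its brightest probe and 0.45 ± 0.33 and 0.02 ± 0.23 on the others. The retinoic acid receptors Rara, Rarb and Rarg had 0.16 ± 0.23, -0.06 ± 0.15 and 0.17 ± 0.14 (SE), and Rara was above background on 1 array of each group. The dimmer probes of Rarb and Rarg gave 0.28 ± 0.26 and 0.32 ± 0.38 (SE).

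The shared partners of these receptors overlapped between the groups. Rxra, Rxrb and Rxrg, the retinoid X receptors, had differences of -0.19 ± 0.16, -0.04 ± 0.15 and 0.18 ± 0.19 (SE) on their brightest probes. For Rxra, the 95% interval ran from -0.55 to 0.17. The second Rxrb probe stood at -0.38 ± 0.17 (SE, limma adjusted p = 0.349).

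**Figure D2:**
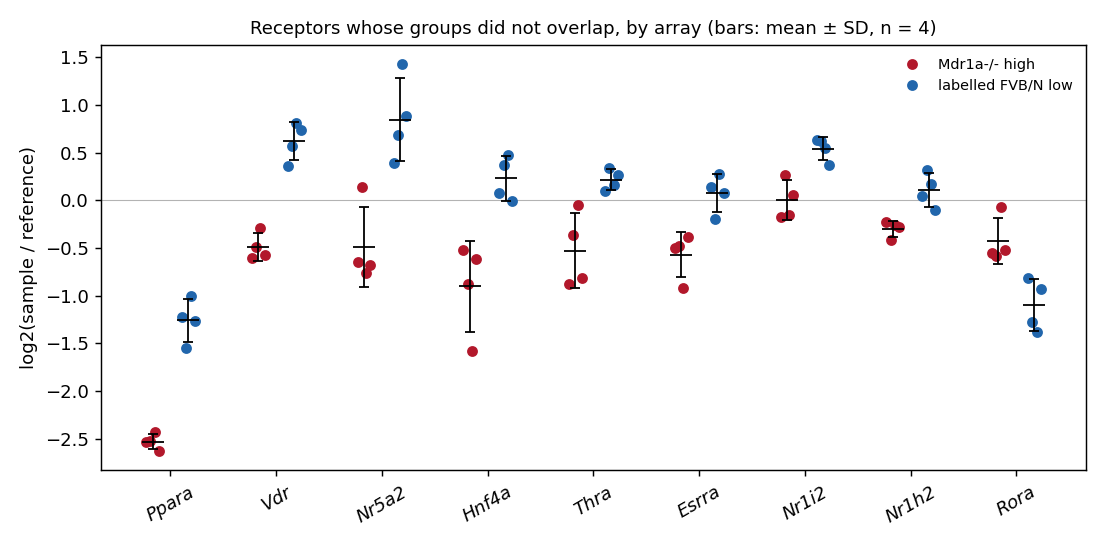
Log2(sample / reference) of the 9 receptor genes whose groups did not overlap (horizontal axis), 1 point per array, Mdr1a-/- high in red and labelled FVB/N low in blue, with mean and SD of 4 arrays in black. The 8 genes at the left lie lower on all 4 Mdr1a-/- arrays and Rora lies higher. The Ppara groups, at -2.63 to -2.43 and -1.55 to -1.0, stand far apart.

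Hnf4a and Nr5a2, both receptors of gut epithelium that act without a retinoid X receptor partner, made up the rest of the calls. Nr5a2, the liver receptor homolog that sustains crypt renewal and local glucocorticoid synthesis in mouse intestine, stood at -0.65, 0.14, -0.76 and -0.68 in Mdr1a-/- mice and at 0.39, 0.69, 1.43 and 0.88 on the arrays labelled FVB/N. The groups did not overlap, and Mdr1a-/- replicate 2 lay nearest to the other group. The difference was -1.34 ± 0.27 (SE, limma adjusted p = 0.0311), which is 2.53-fold lower. Its call was kept only without Mdr1a-/- replicate 2 (adjusted p = 0.0151) or labelled FVB/N replicate 1 (0.0406). The call was lost without Mdr1a-/- replicate 1, 3 or 4 (0.0878, 0.0615 and 0.103) or labelled FVB/N replicate 2, 3 or 4 (0.0639, 0.0769 and 0.088), over which the difference stayed between -1.39 and -1.15. The authors' deposited table gives -0.63 (adjusted p = 0.122).

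Hnf4a, a master regulator of enterocyte differentiation, had 3 probes that did not behave alike. The brightest stood at -0.52, -0.88, -1.58 and -0.62 in Mdr1a-/- mice and at 0.08, 0.37, 0.48 and -0.01 on the arrays labelled FVB/N. Its groups did not overlap, and Mdr1a-/- replicate 3 was the lowest. The difference was -1.13 ± 0.24 (SE, limma adjusted p = 0.0401), and it was called in 1 of 8 leave-one-out fits, the one without Mdr1a-/- replicate 3 (-0.91, adjusted p = 0.0326). Dropping Mdr1a-/- replicate 1, 2 or 4 lost the call (adjusted p = 0.0512, 0.078 and 0.0772), as did dropping any 1 array labelled FVB/N (0.0832, 0.1, 0.12 and 0.0767 for replicates 1 to 4), at differences of -1.26 to -1.05. The second probe, A_51_P198473, gave 0.15 ± 0.13 (SE, limma adjusted p = 0.672). The third, A_52_P69656, gave -0.54 ± 0.15 (SE, limma adjusted p = 0.107) with groups that did not overlap and was above background on 3 Mdr1a-/- arrays. The mean over the 3 probes was -0.50 ± 0.14 (SE, limma adjusted p = 0.0698). Hnf4a has 2 annotated starts, and the sources used here do not say which transcripts each probe reads.

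Their closest relatives overlapped between the groups. Hnf4g, the second Hnf4 gene of gut epithelium, had a difference of 0.07 ± 0.13 (SE, 95% interval from -0.21 to 0.36). Nr5a1, the steroidogenic factor of adrenal gland and gonads, had -0.37 ± 0.17 and 0.19 ± 0.15 (SE) on its probes.

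Of the estrogen-related receptors, orphan regulators of mitochondrial energy genes, Esrra had groups that did not overlap. It stood at -0.50, -0.48, -0.92 and -0.38 in Mdr1a-/- mice and at 0.14, -0.20, 0.28 and 0.08 on the arrays labelled FVB/N. The difference was -0.65 ± 0.17 (SE, limma adjusted p = 0.0855). It was called without background subtraction (-0.61, adjusted p = 0.0424) and with the Cy3 channel alone (-0.86, adjusted p = 0.0482). It was not called in a fit blocked on scan day (-0.77, limma adjusted p = 0.11) or in any fit that left out 1 array. The dimmer Esrra probe gave -0.26 ± 0.15 (SE) with overlapping groups. Esrrb and Esrrg had 0.18 ± 0.16 and 0.15 ± 0.14 (SE) on their brighter probes, and 0.28 ± 0.16 and -0.00 ± 0.13 on the dimmer ones.

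No steroid hormone receptor was called. Nr3c1, the glucocorticoid receptor, had 0.06 ± 0.12 (SE, 95% interval from -0.21 to 0.33) on its brighter probe and -0.32 ± 0.16 (SE) on the other. For Nr3c2, the mineralocorticoid receptor of the sodium-absorbing distal colon, 3 of 4 probes lay at -0.08, -0.10 and -0.17, and the fourth, A_52_P819555, stood apart from them. That probe had -0.54, 1.09, 0.42 and -0.06 in Mdr1a-/- mice and 1.04, 1.28, 1.08 and 1.65 on the arrays labelled FVB/N, a difference of -1.03 ± 0.32 (SE, limma adjusted p = 0.144). Mdr1a-/- replicate 2 overlapped the other group, and without it the difference was -1.32 (adjusted p = 0.0361). With array weights it was -1.25 (adjusted p = 0.0437), and in a fit blocked on scan day -0.88 (limma adjusted p = 0.401). No other fit that left out 1 array gave a call. The file ties this probe to another transcript record than the other Nr3c2 probes.

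Sex steroid receptors were dim or overlapping. Esr1, estrogen receptor alpha, had 0.24 ± 0.22 (SE, limma adjusted p = 0.703) on its brighter probe, where the authors' deposited table gives 0.51 (adjusted p = 0.0329). Its dimmer probe went the other way, at -0.12 ± 0.21 (SE). Esr2, estrogen receptor beta, was above background on 2 arrays of each group, and the brighter Pgr probe, for the progesterone receptor, on 1 Mdr1a-/- array and 2 arrays labelled FVB/N. Their differences were -0.17 ± 0.28 and 0.63 ± 0.30 (SE, limma adjusted p = 0.845 and 0.365), and the dimmer Pgr probe gave -0.07 ± 0.42 (SE).

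**Figure D3:**
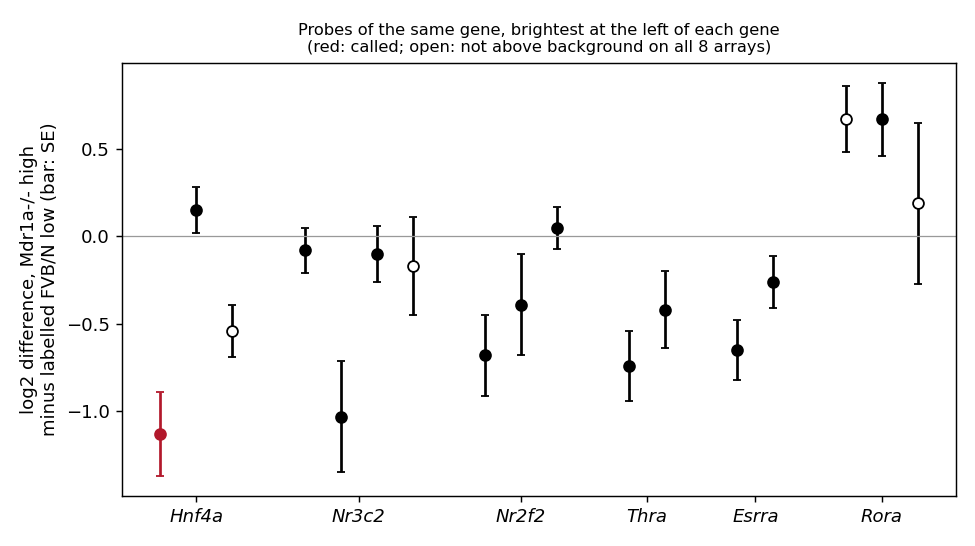
Log2 difference, Mdr1a-/- high minus labelled FVB/N low (vertical axis, bar: SE, n = 4 arrays a group), of every probe of 6 genes (horizontal axis), brightest probe at the left of each gene. Red is called by limma, and open points were not above background on all 8 arrays. Hnf4a, Nr3c2 and Nr2f2 each hold 1 probe at -1.13, -1.03 and -0.68 beside 1 at 0.15, -0.08 and 0.05.

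Among the clock receptors, which repress or activate core clock genes from the same response element, Rora had groups that did not overlap in the upward direction. Its brightest probe stood at -0.55, -0.58, -0.07 and -0.52 in Mdr1a-/- mice and at -0.81, -1.28, -1.38 and -0.93 on the arrays labelled FVB/N. The difference was 0.67 ± 0.19 (SE, limma adjusted p = 0.0997), and that probe was above background on 3 of 4 arrays labelled FVB/N. The second probe, A_52_P652442, gave 0.67 ± 0.21 (SE, limma adjusted p = 0.145), also with groups that did not overlap. The third gave 0.19 ± 0.46 (SE) and was above background on 1 array of each group, and the mean of all 3 gave 0.51 ± 0.23 (SE). The authors' deposited table gives 0.42 (adjusted p = 0.00565) and 0.11 for the first and second probe.

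Nr1d1 and Nr1d2, the Rev-erb repressors, had -0.16 ± 0.14 and -0.36 ± 0.28 (SE) on their brightest probes, and Rorb had 0.18 ± 0.13 (SE). The other Nr1d1 probes gave 0.10 ± 0.13 and -0.55 ± 0.37 (SE), and the other Rorb probes 0.58 ± 0.41 and 0.27 ± 0.45 (SE).

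The Nr4a receptors, immediate early genes that act without a known hormone, did not pass, and 1 array decided the differences of Nr4a1 and Nr4a2. Nr4a1 stood at -0.89, 0.22, 0.05 and -0.04 in Mdr1a-/- mice and at -0.85, 1.75, -1.13 and -0.78 on the arrays labelled FVB/N. Nr4a2 stood at 0.23, 0.76, 0.36 and 0.83 in Mdr1a-/- mice and at -0.19, 2.26, 0.02 and 0.51 on the arrays labelled FVB/N. On both, labelled FVB/N replicate 2 was the highest of the 8 arrays. The Nr4a1 difference was 0.09 ± 0.58 (SE) over all arrays and 0.75 without that array (limma adjusted p = 0.241), and that of Nr4a2 was -0.11 ± 0.47 (SE) and 0.43 without it (adjusted p = 0.468). The mean of 19 other immediate early genes, such as the Fos and Egr genes, was 0.17, 0.43, 0.39 and 0.62 in Mdr1a-/- mice and 0.08, 1.33, 0.23 and 0.07 on the arrays labelled FVB/N, again highest on that array. On the same array the mean of 10 adipocyte markers was 1.26 and that of 9 pancreas acinar markers 1.62, the highest of the 8 arrays, and their part in these values was not tested. Nr4a3 had -0.23 ± 0.22 (SE) and was above background on 3 arrays of each group.

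**Figure D4:**
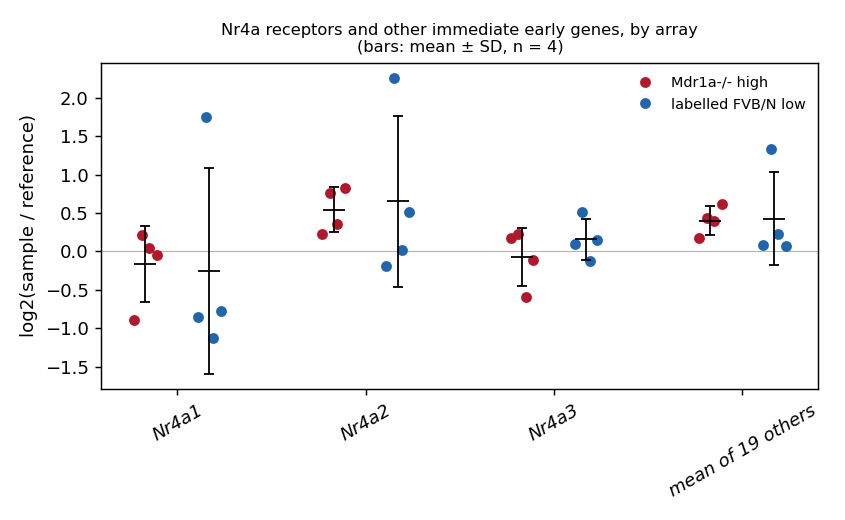
Log2(sample / reference) of the Nr4a genes and the mean of 19 other immediate early genes (horizontal axis), 1 point per array, Mdr1a-/- high in red and labelled FVB/N low in blue, with mean and SD of 4 arrays in black. One blue point, labelled FVB/N replicate 2, is the highest for Nr4a1 (1.75), Nr4a2 (2.26) and the mean of the others (1.33).

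The orphan receptors of subfamily 2 held no call. Nr2f2, the COUP factor of mesenchyme and veins, stood at -1.91, -1.86, -1.22 and -1.84 in Mdr1a-/- mice and at -0.97, -1.44, -0.57 and -1.15 on the arrays labelled FVB/N on its brightest probe. Mdr1a-/- replicate 3 lay inside the range of the other group, and the difference was -0.68 ± 0.23 (SE, limma adjusted p = 0.177). It was -1.12 within scan day 2 and 0.07 within scan day 3, where replicate 3 is the lone Mdr1a-/- array. The other Nr2f2 probes gave -0.39 ± 0.29 and 0.05 ± 0.12 (SE). Nr2f6, a COUP-related repressor that restrains Th17 cytokine genes, stood at -0.59, -1.13, -1.09 and -1.01 in Mdr1a-/- mice and at -0.27, -0.75, -0.25 and -0.53 on the arrays labelled FVB/N, with overlapping groups and a difference of -0.51 ± 0.18 (SE, limma adjusted p = 0.205).

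Nr2c1 and Nr2c2, the testicular orphan receptors, had -0.41 ± 0.24 and 0.26 ± 0.29 (SE) on their brightest probes, and Nr6a1, the germ cell nuclear factor, had -0.10 ± 0.15 (SE). The other Nr2c1 probes gave -0.15 ± 0.21 and -0.48 ± 0.67 (SE), and the other Nr2c2 probe went against the brighter one, at -0.25 ± 0.28 (SE). Nr2e1, above background on no array, had -0.00 ± 0.30 (SE). Nr2e3, a photoreceptor gene, and Nr2f1, another COUP factor, had 0.01 ± 0.18 and 0.45 ± 0.53 (SE) and were not above background on all arrays. The receptors without a DNA-binding domain, which block other receptors, were dim. Nr0b2, the bile acid-induced repressor SHP, had -0.08 ± 0.25 (SE), and Nr0b1, the gonadal and adrenal repressor DAX1, had 0.11 ± 0.16 (SE).

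Of the coregulators that receptors recruit, 1 of 15 coactivators was called lower and 0 higher, against the 2.17% and 2.26% over all named genes. Ppargc1a, the coactivator of Ppara and Esrra that drives mitochondrial genes, had a difference of -1.45 ± 0.29 (SE, limma adjusted p = 0.0295). Ncoa7, another coactivator, was higher on every Mdr1a-/- array, with a difference of 0.58 ± 0.14 (SE, limma adjusted p = 0.0586). Ppargc1b, a relative of Ppargc1a, had -0.65 ± 0.16 (SE, limma adjusted p = 0.0646). Of 11 corepressors 0 were called, and 1 was lower at an unadjusted p under 0.05, where 8.79% of all named genes were. The median difference of the corepressors was -0.11, and that of the coactivators was -0.06.

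Lists of genes known as targets of the receptors that fell are set against all named genes, of which 2.17% were called lower and 2.26% higher. Of 34 PPAR target genes 3 were lower and 0 higher, with a median difference of -0.17 against 0.03 over all named genes. Among the called genes were the thiolase Acaa2 (-1.28 ± 0.14) and the dehydrogenase Acadm (-0.63 ± 0.14), with limma adjusted p = 0.00274 and 0.0485 (SE). This list also holds adipocyte genes, and the mean of 10 adipocyte markers lay between -0.79 and -0.27 in Mdr1a-/- mice and between -0.87 and 1.26 on the arrays labelled FVB/N. Their part in the result was not tested.

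Of 19 Hnf4 target genes 2 were lower, the iron exporter Slc40a1 (-2.24 ± 0.16) and the brush border myosin Myo1a (-1.12 ± 0.20), with limma adjusted p = 0.000994 and 0.0176 (SE). The median over the 19 was -0.12. Of 13 vitamin D receptor targets 0 were lower and 1 was higher, the secreted phosphoprotein Spp1 (2.17 ± 0.32, SE, limma adjusted p = 0.00785), which macrophages also make. Of 8 steroid synthesis genes, a list that holds enzymes under Nr5a2 control, 1 was lower. It was Hsd17b2, which inactivates estradiol and testosterone (-1.41 ± 0.17, SE, limma adjusted p = 0.00359), while Cyp11a1, the first enzyme of steroid synthesis, had 0.37 ± 0.15 (SE, limma adjusted p = 0.305).

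Among targets of receptors that missed the threshold, the largest share of calls was among those of Nr1i2 and Nr1i3, with 5 of 22 lower and 0 higher. They were Cyp3a13 (-1.68 ± 0.19), the sulfotransferase Sult1a1 (-1.92 ± 0.26) and Gstm1 (-1.37 ± 0.19), with Cyp2c55 (-1.24 ± 0.20) and Aldh1a7 (-1.0 ± 0.20), at limma adjusted p between 0.00284 and 0.0333 (SE). Of 17 liver X receptor targets 1 was lower, the sterol exporter Abcg5 (-1.44 ± 0.24, SE, limma adjusted p = 0.0135). Of 13 FXR and bile acid genes 0 were called and 3 were higher at an unadjusted p under 0.05, where 10.1% of all named genes were. The 3 were led by the bile acid exporter subunit Slc51b (1.18 ± 0.27, SE, limma adjusted p = 0.0524), and the list median was 0.35. Of 10 thyroid hormone targets 1 was lower, the deiodinase Dio1 (-1.69 ± 0.15, SE, limma adjusted p = 0.00122).

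Of 18 estrogen-related receptor targets 2 were lower, the slow troponin Tnni1 (-2.65 ± 0.28, SE, limma adjusted p = 0.00216) and Acadm, which the PPAR list holds too. Of 15 clock genes 2 were lower and 0 higher, among them the output factor Dbp (-1.48 ± 0.28, SE, limma adjusted p = 0.0241). Of 18 corticosteroid targets 1 was lower, the gluconeogenic enzyme Pck1 (-1.53 ± 0.33, SE, limma adjusted p = 0.0401), also an adipocyte marker. Of the 19 immediate early genes 2 were lower, Jund (-0.68 ± 0.14) and Fosl2 (-1.07 ± 0.23), with limma adjusted p = 0.0388 and 0.0423 (SE). Of 9 estrogen and progesterone targets 0 were called. At an unadjusted p under 0.05, 2 were higher and 1 lower, where 10.1% and 8.79% of all named genes were.

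Some means of cell type markers lay apart between the groups and others overlapped. In bulk tissue fewer cells of a type and less RNA per cell cannot be told apart. The mean of 10 epithelial markers lay between 0.04 and 0.27 in Mdr1a-/- mice and between 0.36 and 0.67 on the arrays labelled FVB/N, and 1 of the 10, Elf3, was called lower. The mean of 12 absorptive colonocyte markers lay between -0.95 and -0.14 in Mdr1a-/- mice and between -0.28 and 0.28 on the arrays labelled FVB/N. Of the 12, 3 were called lower and 0 higher, where 2.17% and 2.26% of all named genes were. On 4 of the 12 every Mdr1a-/- array was below every array labelled FVB/N, and on 1 every one was above. Over all named genes 6.57% and 7.25% did so. The mean of 12 T and NK cell markers lay between 0.28 and 0.76 in Mdr1a-/- mice and between 0.01 and 0.17 on the arrays labelled FVB/N. The means of 11 neutrophil and 13 macrophage and dendritic cell markers lay at 0.77 to 2.51 and 0.90 to 1.27 in Mdr1a-/- mice and at -0.68 to -0.23 and -0.03 to 0.49 on the arrays labelled FVB/N. The mean of 8 fibroblast markers lay between -0.44 and 0.13 in Mdr1a-/- mice and between -0.99 and -0.51 on the arrays labelled FVB/N, with 1 of the 8 called higher, and that of 9 B and plasma cell markers between 0.57 and 1.48 in Mdr1a-/- mice and between 0.29 and 0.79 on the arrays labelled FVB/N. The mean of 12 enteric neuron and glia markers lay at -0.02 to 0.28 in Mdr1a-/- mice and at 0.43 to 0.63 on the arrays labelled FVB/N. That of 9 smooth muscle markers lay at -0.78 to -0.17 in Mdr1a-/- mice and at -0.36 to 0.17 on the arrays labelled FVB/N. The means of 10 endothelial and 8 goblet cell markers overlapped between the groups. They lay at -0.84 to 0.07 and -0.72 to 0.01 in Mdr1a-/- mice. On the arrays labelled FVB/N they lay at -0.71 to -0.60 and -0.33 to 0.36. Of the 8 goblet cell markers 1 was called lower, Fcgbp (-2.19 ± 0.28, SE, limma adjusted p = 0.00524). Some of the 8 were near saturation on 2 arrays labelled FVB/N, so their differences may be compressed. Called higher were 4 of the neutrophil, 3 of the macrophage and dendritic cell and 3 of the T and NK cell markers. Of the enteric neuron and glia markers 2 were called lower. No B and plasma cell, smooth muscle or endothelial marker was called. Taken relative to the mean of the 10 epithelial markers, a setting chosen after seeing the data that adds 0.30 to every difference, Ppara was at -0.97 and Vdr at -0.80 (limma adjusted p = 0.0109 and 0.0207). On the same scale Nr5a2 was at -1.04 and Hnf4a at -0.83 (limma adjusted p = 0.055 and 0.0795), and both Rora probes above were at 0.97 (0.0326 and 0.0334). The 5 brightest of the 10 markers had mean log2 intensities of 15.76 to 15.85 and differences of -0.16 to 0.07, and 4 of the 10 were near saturation on at least 1 array, so the 0.30 may be compressed and these values are no correction for the share of epithelium. The part of the other cell types in these values was not tested.

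The dates in the names of the deposited array data were taken as scan days, and these crossed the groups in part. On day 2 there were 2 arrays from each group, on day 3 1 array from Mdr1a-/- mice and 2 labelled FVB/N, and on day 1 the remaining Mdr1a-/- array. Within days 2 and 3 the differences were -1.42 and -1.02 for Ppara, -1.13 and -0.94 for Vdr, -1.17 and -1.55 for Nr5a2 and -0.98 and -1.76 for the brightest Hnf4a probe. All 4 genes were lower within both days. With scan day as a block the call of Ppara was kept (-1.26 ± 0.18, SE, limma adjusted p = 0.034), and those of Nr5a2 (-1.32 ± 0.31, adjusted p = 0.134) and Hnf4a (-1.29 ± 0.24, adjusted p = 0.0749) were lost, as was that of Vdr.

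**Figure D5:**
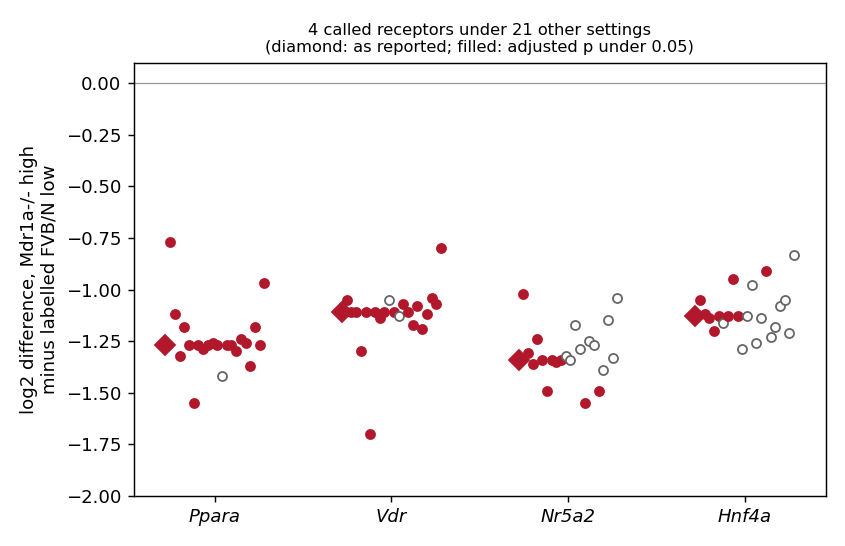
Log2 difference, Mdr1a-/- high minus labelled FVB/N low (vertical axis), of the 4 called receptors (horizontal axis, brightest probe) as reported (diamond) and under 21 other settings (circles). Filled points have a limma adjusted p under 0.05, which held in 20 of the 21 for Ppara, 19 for Vdr, 11 for Nr5a2 and 9 for Hnf4a. All values lie between -1.70 and -0.77. The 21 include a quantile scaling of mean intensity, which leaves log ratios unchanged and so repeats the reported value.

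In the authors' deposited table, 67 of the 77 probes have a fold change, of which 7 were called lower and 2 higher, where 4.35% and 6.3% of all its probes were. Its lower calls were Ppara, Vdr, the brightest probes of Hnf4a (-0.88, adjusted p = 0.00574), Thra (-0.77, 0.00715), Esrra (-0.55, 0.00343) and Nr2f2 (-0.65, 0.0137), and Nr1i2 (-0.56, 0.0149). Its higher calls were Rora and Esr1. Of the 67 probes 49 had the same sign in that table and in the fit above, and the sources used here do not say which arrays entered that table.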

How the data were processed

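Colon RNA (Cy3) of 8 mice and a common reference (Cy5) were hybridised on 2-colour arrays, per the labels' protocols, with no dyes swapped. The deposited array files give mean foreground and local background intensity per spot, per the file headers. They also hold a log2 ratio that the authors made by loess, per the deposited description; Cy5 over Cy3 with background subtraction and loess matched it to within 3e-13, so its direction is reference over sample and its sign was turned. Its medians per array lay between 0.0149 and 0.0319. The authors' deposited table holds log2 fold changes, t scores and p-values; its description says log10, but it is read as log2 here because its values were on the scale of the arrays' log2 differences. limma is named without a version in the submitters' processing notes. 

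From the intensities, limma 3.58.1 (R 4.3.3) ran normexp (offset 50), loess that gave control spots weight 0, a mean over repeated spots, lmFit and eBayes on log2(sample / reference) without covariates, two-sided, adjusted by Benjamini-Hochberg over 41174 probes. Differences are Mdr1a-/- minus labelled FVB/N. Above background means a net Cy3 signal over percentile 95 of the 314 negative controls. RefSeq annotation of GRCm38.p6 named 22072 probes by accession, 6280 by symbol and 4211 by synonym, and 8611 stayed unnamed. The fit was tested on simulated data. The members, gene lists and tests were chosen with earlier results of these data known. Every receptor probe is reported, and of each other list at most the 3 genes of smallest p. The PXR and CAR list is an exception, with all 5 called genes named after their values were seen. Some genes of these lists are not reported here. Alternatives were other background, normalization, filter, weight, variance, probe, batch, replicate and threshold choices, and dropping arrays 1 at a time. The arrays' genome build was not found in the labels or headers. With 4 arrays a group the precision is limited, and p-values measure the spread between mice.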

Additional observations from a re-analysis of the deposited data

Results flagged for a closer look

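In 107 groups of 4 arrays tested, 1 array stood far from the other 3 (by the gap to its nearest neighbour over the range of the group) in 6, and chance gives about 1 in 20. Nr4a1 stood at 1.75 on labelled FVB/N replicate 2, with the other 3 between -1.13 and -0.78. Nr5a2 stood at 0.14 in Mdr1a-/- replicate 2, with the others between -0.76 and -0.65. Mdr1a-/- replicate 3 stood at -1.22 for the brightest Nr2f2 probe and at -0.07 for the brightest Rora probe, with the others between -1.91 and -1.84 and between -0.58 and -0.52. The brighter Esr1 probe stood at -1.03 on labelled FVB/N replicate 3, with the others between -1.71 and -1.63. Hnf4g stood at -0.64 on labelled FVB/N replicate 1, with the others between -0.88 and -0.84. The causes were not tested.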

How the results depend on the processing

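The count of receptor genes called lower was 4 and that of genes called higher 0. It was 7 lower without background subtraction, 1 with scan day as a block, 0 within scan day 2 (4 arrays), 2 at an adjusted p under 0.01 and 7 lower with 1 higher under 0.1. Relative to the epithelial markers, which was chosen after seeing the data, it was 2 lower and 1 higher. The counts of probes were the same in these settings, except that 2 probes were higher relative to the epithelial markers. With the Cy3 channel alone 422 of all probes were higher and 778 lower, against 628 and 598 as reported. Leaving out 1 array gave 2 to 4 genes and 2 to 4 probes lower, and 0 higher. The count of 2 came from dropping labelled FVB/N replicate 2, 3 or 4, or Mdr1a-/- replicate 1 or 4. Replicate numbers are shared by the groups, but the labels do not say that they pair mice. Deviations of same-numbered arrays from their group means correlated at 0.06, 0.11, 0.03 and -0.03, and 1 of 8 arrays correlated best with its own number. A replicate block left 2 genes and 2 probes called lower. Over 1760 pairs of probe and alternative, no called value changed sign, 27 lost a call and 15 gained one. Signs changed in 109 pairs where neither value was called. The 1760 pairs include settings that cannot change a difference, namely the other thresholds and a quantile scaling of mean intensity. Within scan day 2 the fit has few residual degrees of freedom; other causes were not tested. Dim probes have differences that depend on the background correction.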
